A study of Mus musculus with 8 samples.

Results

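The miR-29 family is described here by the mature RNAs from the 3p arms of its hairpins, mmu-miR-29a-3p, mmu-miR-29b-3p and mmu-miR-29c-3p. They were taken by name from the scanner output and make up 3 of the 1881 mouse miRNAs on the array. Footpad skin of mouse embryos was profiled on 8 Agilent miRNA arrays of 1 colour, 2 for each of 4 groups. The groups were embryos with a conditional knockout of Dicer (cKO) at E17.5, wild-type embryos at E17.5, Dicer cKO embryos at E16.5 and wild-type embryos at E16.5, where E is the embryonic day. All groups had the C57BL6 strain background, and each RNA came from footpads pooled from 3 to 5 embryos. The labels do not name the promoter or cell type that drives the deletion, and Dicer mRNA is not measured by a miRNA array. The series title places the work in the later development of the sweat glands, which in mice form in footpad skin.

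Dicer is the enzyme that cuts precursor hairpins into mature miRNAs, so cells that lack it stop making most of them. Mature miRNAs guide Argonaute proteins to messenger RNAs, chiefly through the bases of the seed near the 5′ end. The miR-29 family is best known for repressing collagens, elastin and other genes of the extracellular matrix, and it is widely expressed in fibroblasts and other mesenchymal cells.

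The mature sequences are shown because the members can be told apart only outside the seed. They are RefSeq sequences on build GRCm38.p6, written 5′ to 3′ with the seed (bases 2 to 8) in capitals.
miR-29a-3p: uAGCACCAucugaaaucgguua
miR-29b-3p: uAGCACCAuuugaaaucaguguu
miR-29c-3p: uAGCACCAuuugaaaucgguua
The seed AGCACCA was shared by exactly these 3 of the 1679 mature miRNA names in the RefSeq table. Counted from 1 at the 5′ end, miR-29a-3p and miR-29c-3p differ by 1 substitution, C10U. From miR-29a-3p to miR-29b-3p there are 4 substitutions, C10U, G18A, U21G and A22U, and miR-29b-3p is 1 base longer. From miR-29b-3p to miR-29c-3p the substitutions are A18G, G21U and U22A.

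The family comes from 4 hairpins in 2 pairs. Mir29a (chr6:31062660-31062747, minus strand) and Mir29b-1 (chr6:31063023-31063093, minus strand) lie 275 bases apart and overlap no other RefSeq gene. The nearest gene is Lncpint, a long noncoding RNA gene, 30816 bases from Mir29a. Mir29b-2 (chr1:195037040-195037120, plus strand) and Mir29c (chr1:195037547-195037634, plus strand) lie 426 bases apart within the long noncoding RNA gene A330023F24Rik. The mature miR-29b-3p sequences of Mir29b-1 and Mir29b-2 are identical, so its signal cannot be assigned to either locus.

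Each member had 2 probes, a longer and brighter one and one shortened by 1 base at its 3′ end. The brighter probes are shown because their differences limit how well the arrays separate the members. Capitals mark the bases that pair with positions at which the members differ or with the extra base of miR-29b-3p.
miR-29a-3p probe: TAacCgatttcaGatggtgc
miR-29b-3p probe: AACacTgatttcaAatggtgc
miR-29c-3p probe: TAacCgatttcaAatggtgcta
On build mm9, used by the array design, the miR-29a-3p probe maps to chr6:31012716-31012734. The miR-29b-3p probe maps to chr1:196863287-196863307 and chr6:31013071-31013091, and the miR-29c-3p probe to chr1:196863795-196863815. The miR-29a-3p probe has 1 mismatch to miR-29c-3p, and the miR-29c-3p probe has 1 mismatch to miR-29a-3p. The miR-29b-3p probe has 5 mismatches to miR-29a-3p and 4 to miR-29c-3p. Cross-hybridisation was not tested, so a signal of the miR-29a-3p or miR-29c-3p probe may hold some of the other RNA.

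Between 279 and 384 miRNAs were detected per array, a miRNA being detected where over 50% of the spots of a probe were well above background by the scanner software. The second arrays of both E16.5 groups stood apart, with 281 miRNAs in cKO and 279 in wild type, against 365 in cKO and 367 in wild type on the first arrays. Log2 values of the 2 arrays of a group correlated at 0.997 to 0.999 (Pearson, across miRNAs). The epithelial miRNAs used to check the tissue (the miR-200 family, miR-203-3p and miR-205-5p) had a summed scaled level of 2.58 to 4.01 in cKO and 26.3 to 31.2 in wild type. Those of dermal mesenchyme (such as miR-199a, miR-214 and miR-143) summed to 63.9 to 69.6 in cKO and 48.7 to 55.6 in wild type. Epithelial and mesenchymal markers of skin were thus both measured. Of 5 miRNAs taken as nerve markers, miR-124-3p and miR-9-5p were detected on no array, but the other 3 were detected, 2 of them on all 8 arrays. The 5 skeletal muscle markers were detected on all 8 arrays too. In RNA from whole skin, fewer cells of a type and less RNA per cell cannot be told apart.

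All 3 members were dim, close to the detection limit of the arrays. At E17.5, the stage at which all were detected, their signals in cKO skin stayed near those in wild type, while the epithelial miRNAs were several-fold lower. Signals are background-subtracted intensities in arbitrary linear units, each the mean of about 15 spots of the brighter probe. For miR-29a-3p the signal at E17.5 was 30.4 and 27.8 on the cKO arrays, against 29.4 and 30.3 on the wild-type arrays. The E16.5 arrays gave 16.0 and 17.1 for cKO, against 22.2 and 13.0 for wild type. The genotypes overlapped at both stages on this unscaled level, and every E17.5 array was brighter than every E16.5 array.

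For miR-29b-3p the E17.5 signal was 21.8 and 20.0 on the cKO arrays, against 24.2 and 24.7 on the wild-type arrays. At E16.5, cKO arrays gave 14.8 and 11.2 and wild-type arrays 18.7 and 14.3. Both cKO arrays lay below both wild-type arrays at E17.5, and the genotypes overlapped at E16.5.

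For miR-29c-3p the E17.5 signal was 32.7 and 32.5 on the cKO arrays, against 36.4 and 40.3 on the wild-type arrays. At E16.5, cKO arrays gave 20.8 and 19.7 and wild-type arrays 28.6 and 21.9. Both cKO arrays lay below both wild-type arrays at each stage before any scaling.

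These signals can be set against the noise of each array. The lowest spot signal that the software called well above background was 14.5 to 25.6 across arrays, and the median negative control spot was 2.21 to 4.59. Over the brighter probes, the median coefficient of variation between spots of 1 array was 13.0% to 23.8%, by member and stage. At E17.5 all 3 members were detected on all 4 arrays. At E16.5, miR-29a-3p and miR-29c-3p were detected on the first array of each genotype but not on the second. miR-29b-3p was detected at E16.5 on 1 wild-type array and on 0 of 2 cKO arrays. In all, miR-29a-3p and miR-29c-3p were detected on 6 of 8 arrays and miR-29b-3p on 5.

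**Figure D1:**
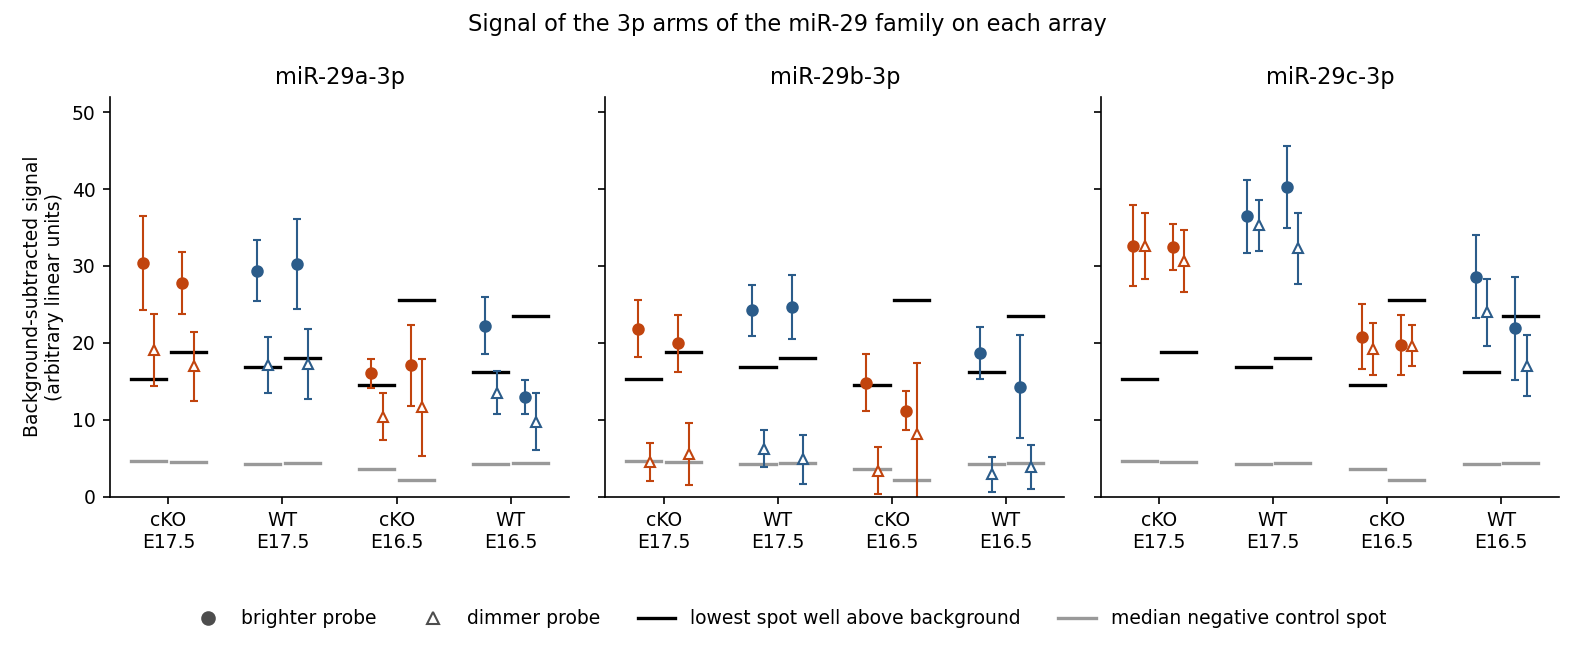
Mean background-subtracted signal (linear, arbitrary units) of each probe of the 3 members on each of the 8 arrays, with the SD over spots as error bars, cKO in orange and wild type (WT) in blue. Black bars mark the lowest spot well above background on that array and grey bars the median negative control spot. The brighter miR-29a-3p probe lies between 13.0 and 30.4, and the dimmer miR-29b-3p probe stays near the negative controls.

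The dimmer probes ranged from 9.75 to 19.1 for miR-29a-3p, from 2.88 to 8.15 for miR-29b-3p and from 17.0 to 35.3 for miR-29c-3p. The dimmer miR-29b-3p probe was detected on no array, so the value of this member rests on 1 probe. Over both probes, 120 of 234 spots were well above background for miR-29a-3p, 74 of 232 for miR-29b-3p and 183 of 235 for miR-29c-3p. The opposite arms of the hairpins, miR-29a-5p, miR-29b-1-5p, miR-29b-2-5p and miR-29c-5p, were not detected on any array. Of their 903 spots on 12 probes, 1 was well above background, for miR-29b-1-5p. Their probe means ran from −1.78 to 7.89, a range that spans the negative controls, and none entered a test.

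To compare arrays, each array was scaled by the 75th percentile of its signals, taken over the 474 probes that every array detected, and log2 values below a common floor of −4.24 were raised to it. For miR-29a-3p the scaled log2 level at E17.5 was −3.75 on both cKO arrays, against −4.10 and −4.11 on the wild-type arrays. At E16.5, cKO arrays stood at −4.17 and −4.08 and wild-type arrays at −4.16 and −4.24, the last value being the floor. On this scale cKO lay above wild type on every array at E17.5, and the genotypes overlapped at E16.5.

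For miR-29c-3p the scaled log2 level at E17.5 was −3.64 and −3.53 on the cKO arrays, against −3.79 and −3.69 on the wild-type arrays. At E16.5, cKO arrays stood at −3.79 and −3.87 and wild-type arrays at −3.80 and −3.70. At E17.5 both cKO arrays lay above both wild-type arrays, the reverse of the unscaled signals, and the genotypes overlapped at E16.5. For miR-29b-3p, 6 of 8 arrays stood at the floor, and the cKO arrays at E17.5 were just above it, at −4.22 and −4.23. The floor corresponded to signals of 26.6 and 27.5 on the wild-type E17.5 arrays, above the miR-29b-3p signals there, although those were well above background. The scaled values of miR-29b-3p therefore hold almost no information on its change, and no fold is given for it.

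**Figure D2:**
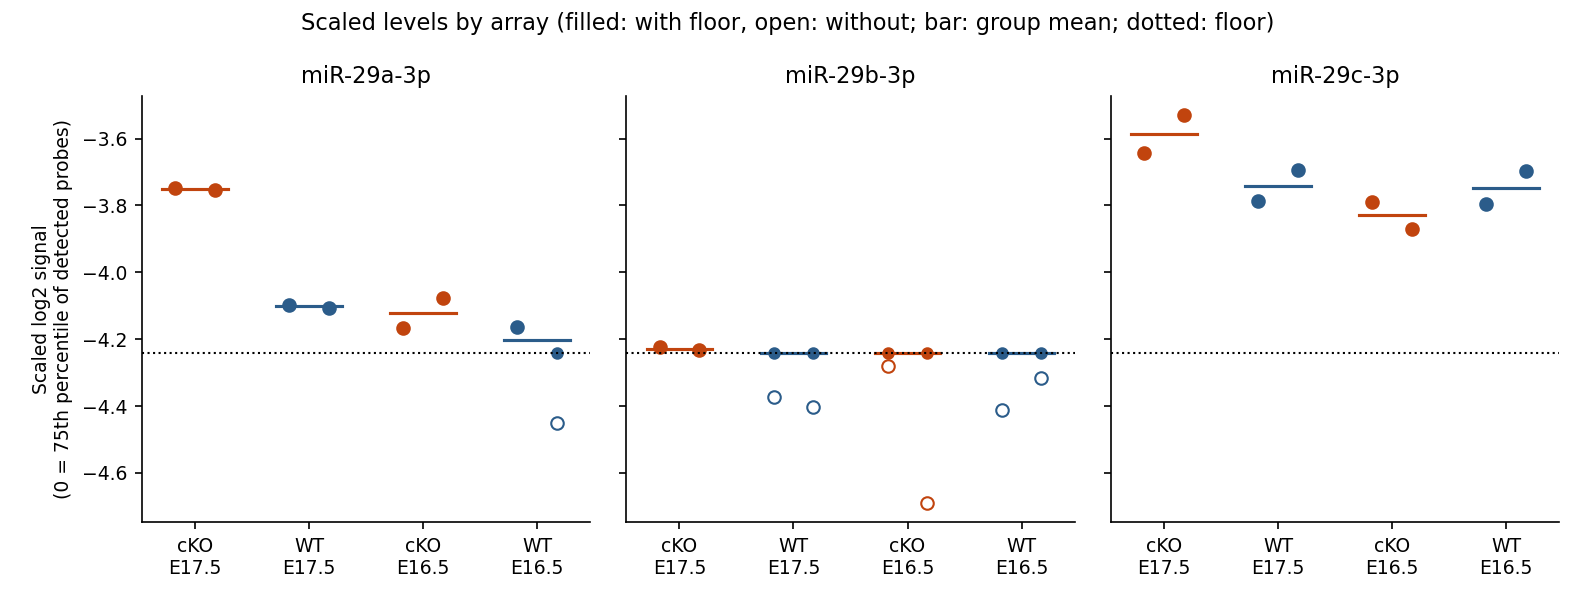
Scaled log2 signal of the brighter probe of each member by array, where 0 is the 75th percentile of the detected probes. Filled points are values with the floor (dotted line, −4.24), open points the values before it, bars the group means of 2 arrays, orange cKO and blue wild type (WT). The cKO E17.5 arrays of miR-29a-3p stand at −3.75, above the other 6, and miR-29b-3p lies on the floor on 6 arrays.

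The genotypes were compared with limma over 385 miRNAs, those that 1 or more groups detected on both of their arrays, with Benjamini-Hochberg adjustment and a threshold of 0.05. Over both stages, 1 of the 3 members passed the test, in a comparison in which 60.3% of the tested miRNAs passed (45.7% higher, 14.5% lower in cKO). miR-29a-3p was higher in cKO by 0.22 on the log2 scale (SE 0.0272, 95% interval 0.15 to 0.29, adjusted p = 0.00188), or 1.16-fold. The floor raised 1 wild-type E16.5 array, which cut the SD of that group from 0.203 to 0.0563 and so narrowed the interval. Without the floor the difference was 0.27 (limma, adjusted p = 0.0246). The median of all tested miRNAs was itself 0.17 higher, so miR-29a-3p stood 0.05 above that median. miR-29c-3p differed by 0.04 (95% interval −0.08 to 0.15, adjusted p = 0.514).

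At E17.5, 1 of the 3 members passed, against 46% of all tested miRNAs (35.8% higher, 10.1% lower). miR-29a-3p was 0.35 higher in cKO on the log2 scale (SE 0.0385, 95% interval 0.25 to 0.45, adjusted p = 0.00181), or 1.28-fold, with a median of 0.13 for all tested miRNAs. Without the floor its adjusted p by limma was 0.0422. For miR-29c-3p the difference was 0.15 (95% interval −0.00 to 0.31, adjusted p = 0.102).

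At E16.5, 0 of the 3 members passed the limma test, against 50.9% of all tested miRNAs (35.8% higher, 15.1% lower). None of the 3 had an unadjusted p under 0.05 at this stage, and miR-29b-3p, at the floor on every E16.5 array, could not pass. miR-29a-3p differed by 0.08 (95% interval −0.02 to 0.18, adjusted p = 0.131) and miR-29c-3p by −0.08 (95% interval −0.24 to 0.08, adjusted p = 0.305). The median of all tested miRNAs was 0.19.

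The directions of the miR-29a-3p and miR-29c-3p differences depended on how the arrays were scaled. The 75th percentile that each array was divided by was 408 and 375 for cKO, against 503 and 521 for wild type, at E17.5. At E16.5 it was 288 on both cKO arrays, against 398 and 284 on the wild-type arrays. At E17.5 the divisor was lower on both cKO arrays, so scaling raised every cKO value relative to wild type there.

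Over both stages, miR-29a-3p was 0.14 higher in cKO with the arrays scaled to their median (adjusted p = 0.0203) and 0.07 with quantile normalization (adjusted p = 0.275). It was −0.05 with no scaling and with the percentile over all probes, and −0.13 with scaling to the positive control probes, none of which passed. At E17.5 alone it was −0.04 with no scaling and −0.12 with the control probes. The median of all tested miRNAs moved in the same way, to −0.09 with no scaling and −0.16 with the control probes. miR-29c-3p was lower in cKO by −0.13 with quantile normalization (adjusted p = 0.0233) and by −0.36 with the control probes (adjusted p = 0.00105). Under each of these 6 scalings miR-29c-3p lay below the median of all tested miRNAs, and miR-29a-3p lay above it under each but quantile normalization. All but quantile normalization use 1 divisor per array, which shifts every miRNA alike apart from the floor. The position against the median is therefore no check of stability. With its dimmer probe, miR-29c-3p lay above the median, at 0.23 against 0.17. Among all called miRNAs, the share higher in cKO was 75.9% with the main scaling, 10% with none and 4% with the control probes.

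**Figure D3:**
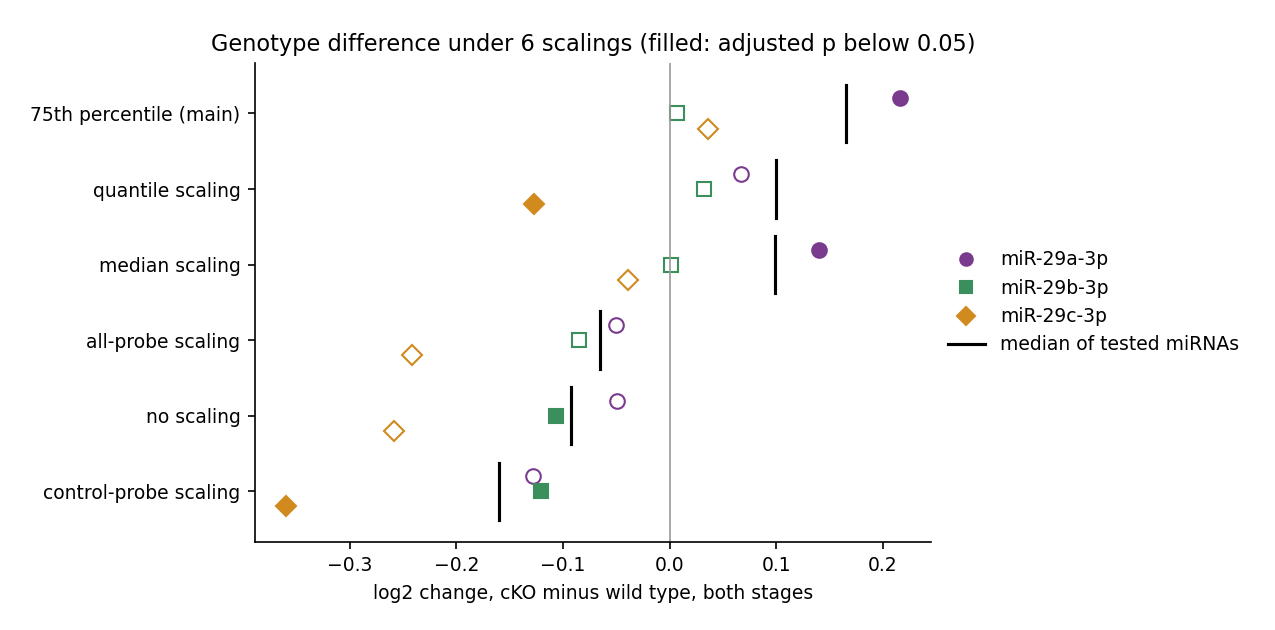
Log2 change of each member, cKO minus wild type over both stages, under 6 scalings of the arrays, with filled symbols where the adjusted p is below 0.05. Black bars are the median change of the tested miRNAs. miR-29a-3p goes with the median bar, at 0.22 with the main scaling and −0.13 with the control probes, and miR-29c-3p lies to the left of the bar throughout. Apart from the floor, every scaling but quantile shifts symbols and bar alike.

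The shorter probes gave a further reading of the same RNAs. With the dimmer probe in place of the brighter, miR-29a-3p stood at the floor on all 8 arrays, so no difference could be measured. The dimmer miR-29c-3p probe was 0.23 higher in cKO over both stages (adjusted p = 0.00727), where the brighter one was 0.04 higher. At E16.5 the probes of miR-29c-3p went opposite ways, the dimmer one 0.17 higher and the brighter one 0.08 lower in cKO, and neither passed. The probes therefore disagreed on whether miR-29c-3p passed over both stages and on its direction at E16.5.

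Ratios within an array do not depend on scaling between arrays, so the members were also compared with each other on the same array. The log2 difference of miR-29a-3p to miR-29c-3p averaged −0.23 ± 0.112 in cKO and −0.46 ± 0.199 in wild type (SD, n = 4 each; two-sided exact permutation p = 0.0857, adjusted over 3 pairs 0.171). That of miR-29a-3p to miR-29b-3p averaged 0.42 ± 0.214 in cKO and 0.17 ± 0.205 in wild type (n = 4 each; exact permutation p = 0.114, adjusted 0.171). That of miR-29b-3p to miR-29c-3p averaged −0.65 ± 0.144 in cKO and −0.63 ± 0.0521 in wild type (n = 4 each; exact permutation p = 0.971). These averages pool both stages and include E16.5 arrays on which a member was not detected. With the exact permutation kept within stage, p was 0.111 for both pairs that hold miR-29a-3p. A difference in response between the members was not detectable with 4 arrays against 4, where the smallest possible p of the permutation over all arrays is 0.0286. Between E17.5 and E16.5, none of the 3 pairs passed either, with exact permutation p of 0.286 to 1.

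A description chosen after the data were seen sets each member against an epithelial and a mesenchymal miRNA on the same array, with no test. It is given for E17.5, where every member was detected on all 4 arrays. miR-205-5p, a miRNA of stratified epithelium, was 3.40 lower in cKO at E17.5 on the log2 scale (limma, adjusted p = 1.17e-04). Relative to it, the within-array log2 value of miR-29a-3p was 3.76 higher in cKO than in wild type. That of miR-29b-3p was 3.56 higher and that of miR-29c-3p was also 3.56 higher. Any miRNA that changed little stands higher against one picked for its fall, and the median over 383 tested miRNAs was 3.59. Thus miR-29b-3p and miR-29c-3p lay close to the typical miRNA, and miR-29a-3p lay somewhat above it.

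miR-199a-3p, a miRNA of mesenchymal cells, was 0.48 higher in cKO at E17.5 with the main scaling (limma, adjusted p = 0.00437). Relative to it, the within-array log2 value in cKO against wild type was −0.13 for miR-29a-3p, −0.32 for miR-29b-3p and −0.33 for miR-29c-3p. The median over the 383 miRNAs was −0.30. A change of the reference miRNA shifts every miRNA and the median alike. The members therefore lie at the same distance from the median as with the epithelial reference, by construction. Their position against it here is no separate observation. The part of the lower epithelial miRNA levels, and of the mesenchymal levels that were higher with the main scaling, in the results for miR-29 was not tested.

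**Figure D4:**
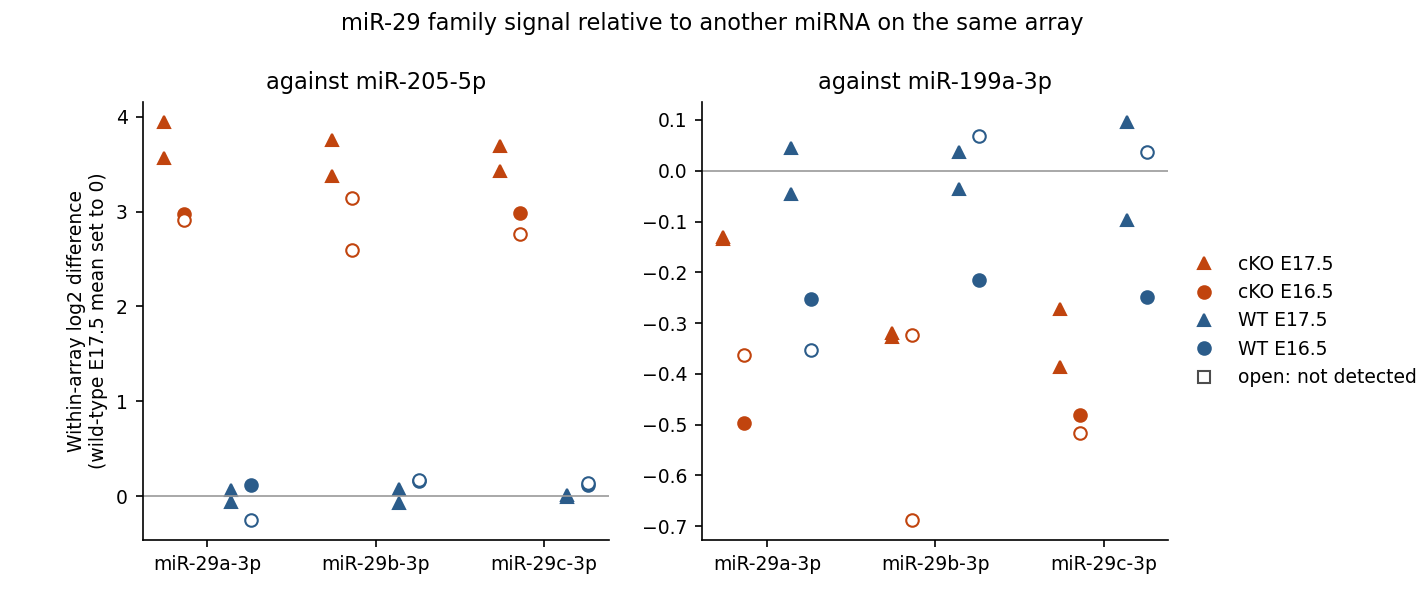
Log2 difference of each member to miR-205-5p (left) and to miR-199a-3p (right) on the same array, with the wild-type E17.5 mean of each set to 0. Each point is 1 array, cKO in orange and wild type (WT) in blue, triangles for E17.5 and circles for E16.5, open where the member was not detected. At E17.5 the cKO arrays average 3.56 to 3.76 above wild type against miR-205-5p, and −0.13 to −0.33 against miR-199a-3p.

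Between the stages, miR-29a-3p and miR-29c-3p were higher at E17.5 in cKO skin with the main scaling. In E17.5 against E16.5 cKO embryos, 2 of 3 members passed the limma test, against 35.3% of all tested miRNAs (15.1% higher, 20.3% lower). All 3 members met the detection filter only through the E17.5 groups, in both genotypes. That selection favours a higher level at E17.5, so these counts are no support for a rise. miR-29a-3p was 0.37 higher at E17.5 on the log2 scale (SE 0.0385, 95% interval 0.27 to 0.47, adjusted p = 0.00795, or 0.0467 without the floor), or 1.29-fold. miR-29c-3p was 0.24 higher (SE 0.0618, 95% interval 0.08 to 0.40, adjusted p = 0.0372), or 1.18-fold, while the median of all tested miRNAs was 0. The miR-29c-3p call did not hold in 6 of the 8 fits that left out 1 array, where adjusted p ran up to 0.132. That call was also lost with median scaling (limma, adjusted p = 0.0693), all-probe scaling (0.151) and no floor (0.0697). It held with quantile normalization, no scaling and control-probe scaling. With normexp background correction all 3 members were lower at E17.5, miR-29a-3p by −0.16, miR-29b-3p by −0.20 and miR-29c-3p by −0.17, but its offset of 50 exceeds every signal of these probes.

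In wild-type skin, 0 of 3 members passed between E17.5 and E16.5 by limma, against 14.8% of all tested miRNAs (4.16% higher, 10.6% lower). miR-29a-3p was 0.10 higher at E17.5 (95% interval 0.00 to 0.20, adjusted p = 0.133), the only member with an unadjusted p under 0.05, at 0.0462. miR-29c-3p differed by 0.01 (95% interval −0.15 to 0.16). miR-29b-3p stood at the floor on every wild-type array, so it could not pass. With no scaling, all 3 members passed in wild type, with differences of 0.49 for miR-29a-3p, 0.26 for miR-29b-3p and 0.61 for miR-29c-3p, where the median of all tested miRNAs was 0.47. The unscaled differences in cKO were 0.51, 0.05 and 0.66 in the same order, with a median of 0.36. For miR-29a-3p and miR-29c-3p the genotypes thus differed little in this before scaling.

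The genotype difference was not shown to change with stage. In the limma test of that change, 0 of 3 members passed, against 1.56% of all tested miRNAs (0.779% higher, 0.779% lower). For miR-29a-3p the genotype difference was 0.27 larger at E17.5 than at E16.5 (95% interval 0.13 to 0.41, limma, adjusted p = 0.0701). For miR-29c-3p it was 0.24 larger (95% interval 0.01 to 0.46, adjusted p = 0.163). Both had an unadjusted p under 0.05, at 0.00404 for miR-29a-3p and 0.042 for miR-29c-3p. Without the second E16.5 arrays, which detected fewer miRNAs, the miR-29a-3p value was 0.35, with 1 array left in each E16.5 group. Without the second cKO E16.5 array alone it was 0.31, with 1 array left in that group. For these reduced fits only the size is given. Other processing gave 0.29 with the median of spots in place of their mean, and 0.21 with quantile normalization. The value fell to 0.17 without the floor, which had raised 1 wild-type E16.5 array (limma, adjusted p = 0.537). It was 0.025 with no scaling, 0.016 with control-probe scaling and −0.053 with normexp. None of these other processing choices gave a value that passed.

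Across the 8 arrays the scaled levels of the members, taken here without the floor, varied only partly together. Pearson's r was 0.74 for miR-29b-3p with miR-29c-3p, 0.54 for miR-29a-3p with miR-29c-3p and 0.29 for miR-29a-3p with miR-29b-3p. These are descriptions over arrays that share their scaling, and they include the 2 or 3 E16.5 arrays on which a member was not detected. Among the 261 miRNAs detected on all arrays, the closest to miR-29a-3p were miR-100-5p (r = 0.959), miR-195a-5p (r = 0.952) and miR-26b-5p (r = 0.944). The closest to miR-29c-3p were miR-542-3p (r = 0.942), miR-143-3p (r = 0.872) and miR-101a-3p (r = 0.833). For miR-29b-3p they were miR-378d (r = 0.904), miR-378b (r = 0.871) and miR-30c-5p (r = 0.858).

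Other miRNAs linked in the literature to extracellular matrix or fibrosis went both ways. Of 26 on the list, 24 were tested, and over both stages 6 were higher in cKO, 6 were lower and 12 did not pass, where 45.7% of all tested miRNAs were higher and 14.5% lower. Their median change was 0.0023 on the log2 scale, against 0.17 for all tested miRNAs. At E17.5 the counts were 7 higher and 4 lower of 24 (35.8% and 10.1% of all tested miRNAs). At E16.5 they were 5 higher and 8 lower of 24 (35.8% and 15.1% of all tested miRNAs). The 4 with the largest change over both stages by limma were miR-203-3p, miR-34a-5p, miR-18a-5p and miR-199a-5p.

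miR-203-3p, which promotes differentiation of the epidermis and is also among the epithelial markers, was lower in cKO by −3.19 (adjusted p = 3.42e-05). miR-34a-5p, a miRNA induced by p53, was lower by −1.72 (adjusted p = 2.26e-05). miR-18a-5p, of the miR-17 to miR-92 cluster, was lower by −0.48 (adjusted p = 3.01e-04). miR-199a-5p, which is abundant in mesenchymal cells, was higher by 0.41 (adjusted p = 3.21e-04). In the same fit the change was 0.22 for miR-29a-3p and 0.04 for miR-29c-3p, and miR-29b-3p, at the floor on most arrays, is not set beside them.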

How the data were processed

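The deposited files are scanner output of single-colour Cy3 arrays, written by Agilent Feature Extraction 11.5.1.1 per the file headers, with the array design mapped to mm9. The authors' deposited background-subtracted intensity of each spot was used, with the outlier and well-above-background flags per the file headers. All 8 arrays lay on 1 slide, per the labels, with replicate 1 and replicate 2 of each group in different rows. No spot was saturated, and 2.84% to 6.02% of spots per array were left out as outliers.

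Spots of a probe were averaged and divided by the array's 75th percentile over 474 probes. The 5th percentile of detected probes was taken on each array, the median of these served as a floor, and values were converted to log2. The brightest probe stood for a miRNA. A linear model of the 4 group means ran in limma 3.58.1 (R 4.3.3) for 385 miRNAs, with a trended eBayes prior, sharing 1 spread estimate with 4 residual degrees of freedom, and p-values were adjusted by Benjamini-Hochberg within each contrast. Within-array differences and correlations used the members' values without the floor, and differences between members had two-sided exact permutation tests.

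The labels call the 2 arrays of a group replicates and state pooled embryos, so p-values measure the spread between pools. The number of arrays limits the precision. Same-numbered arrays of different groups deviated together in 5 of 6 pairs (correlation −0.14 to 0.28). The members, lists and tests were chosen with earlier results of these data known. Named miRNAs were the members, their 5p arms, the 4 list members with the largest change among those that passed, and per member the 3 miRNAs with the highest correlation; miR-205-5p and miR-199a-3p were set against the members after their values were seen. Alternatives were other scalings, background correction, floor, filter, probe summary, the deposited value table, the replicate block and leaving out arrays.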

Additional observations from a re-analysis of the deposited data

How the results depend on the processing

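The arrays detect these miRNAs only just above background, and scaling decides their direction. Over both stages, miR-29a-3p in cKO against wild type was 0.067 with quantile scaling, −0.050 with all-probe scaling, −0.049 with no scaling, −0.13 with control-probe scaling, 0.15 with normexp, 0.28 with the software's total gene signal and 0 with the dimmer probe, none of which passed. miR-29b-3p was −0.11 with no scaling, −0.12 with control-probe scaling and 0.059 with total gene signal, all passing. miR-29c-3p was −0.13 with quantile scaling, −0.36 with control-probe scaling, 0.13 with the mean over probes, 0.14 with total gene signal and 0.23 with the dimmer probe, all passing. The cause was not tested.

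At E17.5 the sign turned for miR-29a-3p with no scaling (−0.037) and control-probe scaling (−0.12), for miR-29b-3p with all-probe scaling (−0.17), unscaled (−0.21) and by control probes (−0.21), and for miR-29c-3p with all-probe scaling (−0.18), unscaled (−0.23) and by control probes (−0.32). Between stages in cKO it turned with normexp for miR-29a-3p (−0.16), miR-29b-3p (−0.20) and miR-29c-3p (−0.17). Differences that did not pass also turned sign under some alternatives.

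The number of members passing, 1 over both stages, was 0 with all-probe scaling and normexp. It was 2 with control-probe scaling, both lower in cKO, and 2 with mean over probes and total gene signal, both higher. It stayed 1 with quantile scaling and with no scaling, but that member was lower in cKO, miR-29c-3p and miR-29b-3p respectively. At E16.5, 0 became 1 with quantile and control-probe scaling, in each case miR-29c-3p, lower in cKO. At E17.5, 1 became 0 with quantile scaling and normexp, 2 with control-probe scaling (both lower in cKO) and 2 with mean over probes (both higher). It stayed 1 with all-probe scaling and with no scaling, but there the member was miR-29b-3p, lower in cKO. For the stage difference of the genotype effect, 0 became 1 without the second E16.5 arrays. Between stages in cKO, 2 became 0 with normexp and total gene signal and 1 with median, all-probe and control-probe scaling, no floor, only the groups compared, the dimmer probe and without the second E16.5 arrays. In wild type, 0 became 1 with all-probe scaling, 2 with control-probe scaling and 3 unscaled.

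Leaving out each array gave 0.19 to 0.24 for miR-29a-3p and 0.01 to 0.06 for miR-29c-3p over both stages. At E17.5 the ranges were 0.35 to 0.36 and 0.10 to 0.21. For the stage difference of the genotype effect they were 0.23 to 0.31 and 0.18 to 0.29, and between stages in cKO 0.33 to 0.42 and 0.19 to 0.30. The range of 0.0050 to 0.0095 for miR-29b-3p over both stages holds almost no information, since 6 of its 8 arrays stood at the floor.

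At E17.5, the within-array difference to miR-199a-3p was −0.17 with normexp, −0.24 with the dimmer probe and −0.40 with negative control subtraction for miR-29b-3p, −0.20 with normexp and −0.19 with the dimmer probe for miR-29c-3p, and −0.029 with the dimmer probe for miR-29a-3p. The difference of miR-29c-3p to miR-205-5p was 3.70 with the dimmer probe. Leaving out 1 array gave −0.18 to −0.09 for miR-29a-3p, −0.36 to −0.29 for miR-29b-3p and −0.43 to −0.23 for miR-29c-3p, against miR-199a-3p. With 2 arrays a group such a shift cannot exceed the spread between arrays, so these ranges are no check of stability.

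With the replicate number as a block, miR-29a-3p over both stages was 0.22 (adjusted p = 0.00602), and no call of a member changed. A filter on detection on all 8 arrays gave no value, since no member meets it. The alternatives added after seeing the data were total gene signal, negative control subtraction, the dimmer probe, leaving out the second E16.5 arrays and the differences to miR-205-5p and miR-199a-3p.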
